A study of Mus musculus with 6 samples.

Results

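The collagen genes were taken as every gene whose symbol consists of Col, a number, the letter a and a number, measured by a probe set that carries exactly 1 gene symbol. On these arrays a probe set, a small group of short probes, reads the transcripts of a gene. There were 82 such probe sets for 42 collagen genes, out of 34958 probe sets with 1 symbol for 18194 genes and 45101 probe sets in all. All 82 entered the comparison, with no filter on low values. Of the 42 genes, 15 were read by 1 probe set only. Col6a6 and Col28a1 were not analysed here. The samples were RNA of female C57BL/6 mice that had all been ovariectomized at 4 months of age. The OVX group (n = 3) then carried placebo pellets for 60 days, and the OVX + E2 group (n = 3) carried pellets with 0.18 mg of estradiol (E2) in total for the same time. Removal of the ovaries takes away the main source of E2 in both groups, so the comparison asks what replaced E2 does to transcripts of muscle. There was 1 Affymetrix array per sample. Nothing in the sources used here says whether the samples came from separate mice, so p-values measure only their spread, which may be technical.

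Collagens are extracellular proteins of 3 chains wound into a triple helix, and the chains of a type are encoded by separate genes. Fibrillar collagens assemble into the fibrils of the endomysium, perimysium and tendon. Collagen IV forms the sheet-like network of the basement membrane around each fibre and capillary, with collagens XV and XVIII at its border. Collagen VI forms beaded filaments that link the basement membrane to the fibrils, and mutations in its genes cause muscular dystrophies. In muscle, most fibrillar collagen is made by fibroblasts of the connective tissue, while endothelial cells and other cells also make collagen IV. By these roles 11 genes with 21 probe sets were fibrillar, 8 genes with 15 probe sets belonged to the basement membrane and 23 genes with 46 probe sets were other collagens. In a whole piece of muscle, fewer cells of a type and less RNA per cell cannot be told apart.

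The tissue was checked first, because the sample labels name left ventricle and the study names soleus. All of the 5 fast fibre genes and 5 slow fibre genes were read by a probe set among the brightest 25% of the array. Of 8 heart-restricted genes 2 were, 3 lay below the median of all probe sets by their brightest probe set, and the rest lay between. The probe set 1422536_at of Tnni3, the cardiac troponin I, lay at percentile 29.8. The 6 arrays correlated with each other between 0.983 and 0.996 over all probe sets. The summed linear level of the fast fibre genes was 57086 on OVX replicate 3, the highest, and 3618 on OVX + E2 replicate 3, the lowest, with the remaining arrays at 17740 to 31706. Those arrays stand apart in this respect, and values without both are given below. All values are log2 expression values in arbitrary units as deposited, and every difference is OVX + E2 minus OVX on that scale.

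The collagen genes covered the whole range of signal. By its brightest probe set, each of 15 of the 42 genes lay in the upper 25% of all probe sets, 5 of them in the upper 10%, while 11 lay below the median. A mean over the 6 arrays of 8 or more, a split chosen after the values were seen, was reached by 13 probe sets of 9 genes. They were Col1a1, Col1a2, Col3a1 and Col5a2 of the fibrillar collagens, Col4a1 and Col4a2 of the basement membrane, and Col6a1, Col6a2 and Col6a3 of collagen VI. These 13 are called the bright collagens below. Col5a3 1419703_at, with group means of 8.16 and 7.81, lay just under the split. Signal of a probe set depends on its probes as well as on the transcript, so levels are not ranked between genes here.

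**Figure D1:**
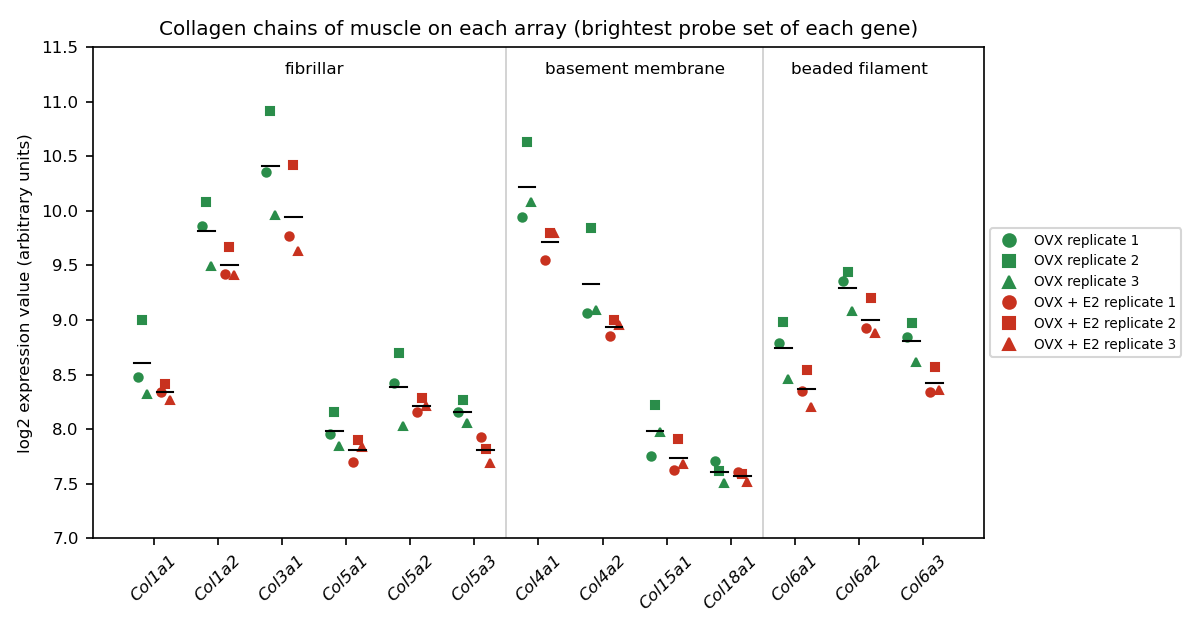
Expression of 13 collagen genes on each array (vertical axis, log2 value in arbitrary units), by the brightest probe set of each gene, with OVX in green, OVX + E2 in red, a marker per replicate number and a black line for the mean of a group. Col3a1 has the largest range, from 9.63 on OVX + E2 replicate 3 to 10.91 on OVX replicate 2, and of the 13 genes only Col18a1 is not highest on OVX replicate 2.

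Across all collagens, the OVX and OVX + E2 arrays differed about as often as over probe sets at large. By limma, the study's threshold, an unadjusted p of at most 0.001, was reached by 0 of the 82 probe sets and by 0.213% of all probe sets. At an unadjusted p under 0.05 from limma, 8 collagen probe sets of 7 genes were lower in OVX + E2, or 9.76% of them beside 9.43% of all probe sets. The 4 that were higher made up 4.88% of the collagens, beside 4.35% of all. The smallest adjusted p of a collagen was 0.308 from limma with Benjamini-Hochberg adjustment, and no probe set of the array had an adjusted p under 0.05. The values of the groups did not overlap, with OVX + E2 lower, in 8 collagen probe sets (9.76%, beside 11.4% of all). They did not overlap, with OVX + E2 higher, in 6 (7.32%, beside 9.76% of all). The difference was below 0 in 40 of the 82 (48.8%, beside 52.3% of all), and its median was 0.003.

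These counts moved with the normalization and with single arrays. After cyclic loess, which removes a dependence of the difference on brightness, 5 collagen probe sets were lower and 4 higher (6.10% and 4.88%, beside 4.02% and 3.57% of all). After quantile normalization, which gives every array the same distribution, 5 were lower and 5 higher (6.10% each, beside 3.33% and 4.46% of all). Leaving out OVX replicate 1, 2 or 3 gave 7, 4 and 18 lower collagens, where 7.83%, 10.1% and 9.1% of all probe sets were lower. Leaving out OVX + E2 replicate 1, 2 or 3 gave 3, 11 and 3 (7.48%, 9.25% and 5.7% of all). For the higher collagens the same fits gave 2, 6 and 2 (2.87%, 3.67% and 3.17% of all) and then 1, 4 and 1 (2.87%, 4.26% and 2.3% of all). The 18 lower collagen probe sets without OVX replicate 3, 22.0% of the 82, stood farthest from the share of all probe sets.

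Of the 8 lower collagen probe sets, 5 were bright. All 13 bright collagen probe sets had a difference below 0, as had 90.4% of all probe sets with a mean of 8 or more. Their median difference was −0.30, beside −0.13 for those 8643 probe sets. At an unadjusted p under 0.05 from limma 5 of the 13 were lower (38.5%, beside 32.8% of all bright probe sets), and in 4 the groups did not overlap (30.8%, beside 33.6%). The median of all bright probe sets, −0.13, is therefore the level against which the values of single bright chains below can be read. For dimmer chains that level is another. The median of all probe sets was −0.06 at means of 7.5 to 8 and −0.0006 at 7 to 7.5. It was 0.03 at means of 6.5 to 7 and 0.02 at 6 to 6.5. After cyclic loess the medians were −0.17 for the bright collagens and −0.01 for all bright probe sets. After quantile normalization they were −0.16 and 0.007. All 13 were below 0 after both. Without OVX replicate 2 the medians were −0.18 and −0.14. The 69 collagen probe sets with a mean under 8 had a median difference of 0.01, with 27 of them below 0.

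**Figure D2:**
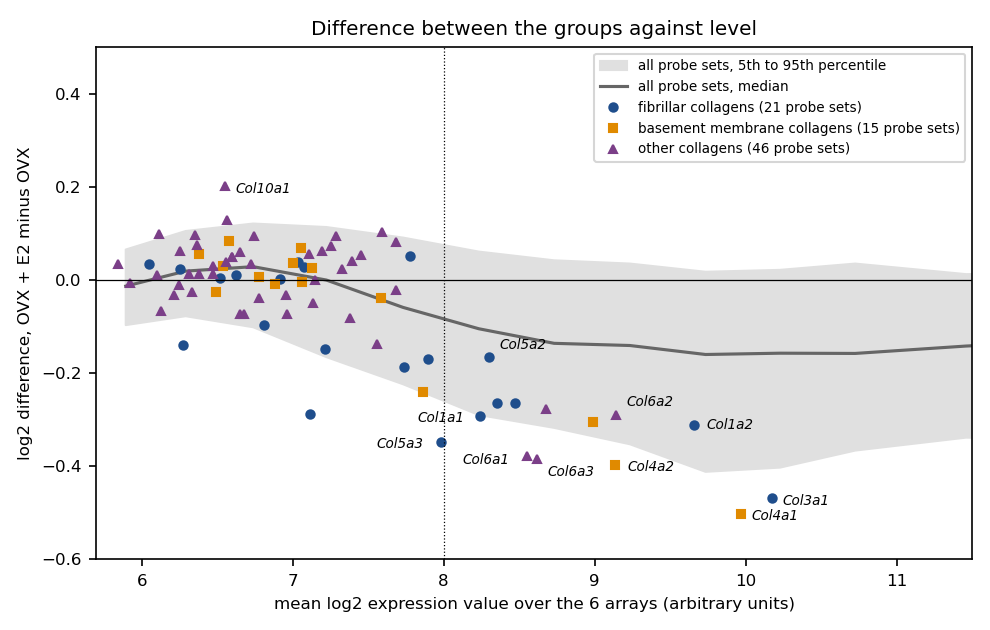
Difference of OVX + E2 minus OVX (vertical axis, log2) at each mean log2 value over the 6 arrays (horizontal axis) for the 82 collagen probe sets, marked by class, with a grey band from the 5th to the 95th percentile and a line for the median of all probe sets of like brightness and a dotted line at a mean of 8. All 13 collagen probe sets with a mean of 8 or more lie below 0, as does the median of all probe sets there, and the dimmer collagens scatter on both sides of 0.

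Of the 3 classes the fibrillar collagens had the lowest median difference, −0.15 over 21 probe sets, with 13 below 0. The basement membrane collagens had a median of −0.005 over 15 probe sets with 8 below 0, and for the type IV chains alone it was 0.02. The other collagens had a median of 0.02 over 46 probe sets with 19 below 0. Within them the beaded filament chains of collagen VI stood at −0.28 over 7 probe sets, with 5 below 0. The share of bright probe sets differed between the classes, with 6 of 21 fibrillar, 3 of 15 basement membrane and 4 of 46 other. Among bright probe sets alone the medians were −0.28 for fibrillar, −0.40 for basement membrane and −0.33 for other collagens. Without OVX replicate 2 these became −0.05, −0.14 and −0.24, and the fibrillar median over all brightnesses became −0.03.

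Collagens I and III are the main fibril-forming collagens of muscle connective tissue. Col1a1, which encodes the alpha 1 chain of collagen I, lies at chr11:94936224-94953042 of GRCm38.p6. Its probe set 1423669_at measured 8.48, 9.00 and 8.33 in OVX against 8.34, 8.41 and 8.26 in OVX + E2, here and below in the order of replicates 1, 2 and 3. OVX replicate 2 was the high array, and the other 5 lay close together. The difference was −0.26 (standard error 0.160, unadjusted p = 0.14 from limma), and it was −0.06 without OVX replicate 2. Without OVX replicate 3 the difference was −0.40 (unadjusted p = 0.027 from limma). The other probe set of Col1a1, 1455494_at, gave 8.20, 8.95 and 8.01 in OVX against 8.17, 8.28 and 7.84 in OVX + E2. Its groups overlapped as well, and its difference went from −0.29 to −0.01 without OVX replicate 2 and to −0.48 without OVX replicate 3 (unadjusted p = 0.072 from limma).

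Col1a2, at chr6:4505618-4541543, encodes the alpha 2 chain that joins 2 alpha 1 chains in collagen I. Its probe set 1450857_a_at measured 9.86, 10.08 and 9.49 in OVX against 9.42, 9.67 and 9.41 in OVX + E2, with a difference of −0.31 (standard error 0.147, unadjusted p = 0.072 from limma). The groups overlapped through OVX replicate 3 and OVX + E2 replicate 2. The difference was −0.18 without OVX replicate 2 and −0.47 without OVX replicate 3 (unadjusted p = 0.22 and 0.0025 from limma). Probe set 1423110_at gave 8.43, 8.97 and 8.06 in OVX against 8.24, 8.46 and 7.96 in OVX + E2, a difference of −0.27 that was −0.03 without OVX replicate 2. Without OVX replicate 3 it was −0.48 (unadjusted p = 0.043 from limma). A dim probe set of Col1a2, 1446326_at, at percentile 11.7 of all probe sets, differed by 0.02 only. The probe sets of this gene thus differ. Differences of dim probe sets are compressed in these values, and the part of that here was not tested. Col3a1, the single chain of collagen III, lies at chr1:45311538-45349706. It measured 10.35, 10.91 and 9.96 in OVX against 9.77, 10.42 and 9.63 in OVX + E2 on probe set 1427883_a_at. In each group replicate 2 was highest and replicate 3 lowest, and the groups overlapped. The difference of −0.47 (standard error 0.276, unadjusted p = 0.13 from limma) was within that spread, and a dimmer probe set, 1427884_at, differed by −0.29.

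Collagen V co-assembles with collagen I and limits the diameter of fibrils. Its alpha 3 chain, Col5a3 at chr9:20770050-20815117, had the smallest p of all collagens. Probe set 1419703_at measured 8.16, 8.26 and 8.05 in OVX against 7.92, 7.82 and 7.69 in OVX + E2. Every OVX array was above every OVX + E2 array. The difference was −0.35 (standard error 0.076, unadjusted p = 0.0024 and adjusted p = 0.308 from limma). An exact permutation test over the 20 labelings of the arrays gave a two-sided p of 0.1, the smallest that 3 against 3 allow. The unadjusted p was under 0.05 in 6 of the 6 limma fits that leave out 1 array, and the difference ran from −0.40 to −0.29 in them. It was −0.28 after cyclic loess and −0.21 with OVX replicate 2 left out as well. The other probe set of Col5a3, 1425984_at, had a mean under 7 and a difference of 0.005. The gene's probe sets thus differ, and the part of compression at low signal in this was not tested.

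The alpha 1 chain of collagen V, Col5a1 at chr2:27886381-28039510, had 3 probe sets with differences of −0.19 for 1416740_at, −0.15 for 1416741_at and −0.17 for 1434479_at. Probe set 1434479_at measured 7.96, 8.15 and 7.84 in OVX against 7.70, 7.90 and 7.84 in OVX + E2, with overlapping groups. Probe set 1416741_at measured 7.27, 7.38 and 7.21 in OVX against 7.16, 7.20 and 7.05 in OVX + E2, which did not overlap, although OVX replicate 3 and OVX + E2 replicate 2 nearly met. Its unadjusted p was 0.039 from limma, and 0.122 without OVX replicate 2. Probe set 1416740_at measured 7.92, 7.94 and 7.63 in OVX against 7.51, 7.79 and 7.63 in OVX + E2. The groups overlapped, with OVX replicate 3 below OVX + E2 replicate 2. Col5a2, the alpha 2 chain at chr1:45374331-45503282, lies 24.6 kb from Col3a1. Its probe set 1422437_at gave 8.42, 8.70 and 8.03 in OVX against 8.15, 8.29 and 8.21 in OVX + E2, and the difference of −0.17 was −0.01 without OVX replicate 2. Without OVX replicate 3 the difference was −0.34 (unadjusted p = 0.0061 from limma). OVX replicate 3 was below all the OVX + E2 arrays.

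Col24a1, a fibrillar collagen known from developing bone, was also lower at an unadjusted p of 0.040 from limma, at a low level. Its probe set 1453418_at measured 6.24, 6.44 and 6.34 in OVX against 6.18, 6.19 and 6.23 in OVX + E2, a difference of −0.14 (standard error 0.056). The groups did not overlap, although OVX replicate 1 and OVX + E2 replicate 3 nearly met. At percentile 12.6 of all probe sets, this signal is low for any transcript. Without OVX replicate 2 its unadjusted p was 0.114 from limma.

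Of the basement membrane collagens, Col4a1 and Col4a2 encode the chains of the most widespread collagen IV. They lie head to head at chr8:11198423-11312889 and chr8:11312805-11449287, where the annotated genes overlap by 85 bases. Col4a1 probe set 1452035_at measured 9.94, 10.63 and 10.08 in OVX against 9.55, 9.80 and 9.80 in OVX + E2. The groups did not overlap, and OVX replicate 2 stood well above the rest. The difference of −0.50 (standard error 0.173, unadjusted p = 0.022 from limma) was the most negative of all collagens. It was −0.30 without OVX replicate 2, with an unadjusted p of 0.016 there, and the p was 0.079 without OVX + E2 replicate 1. After cyclic loess it was −0.35 with an unadjusted p of 0.094, and −0.13 with OVX replicate 2 also left out.

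Col4a2 gave 9.06, 9.84 and 9.09 in OVX against 8.85, 9.00 and 8.96 in OVX + E2 on probe set 1424051_at. The groups did not overlap, but OVX replicates 1 and 3 lay nearer to the OVX + E2 arrays than to OVX replicate 2. Its difference was −0.40 (standard error 0.197, unadjusted p = 0.083 from limma), and −0.14 without OVX replicate 2 with an unadjusted p of 0.046. The other probe set of Col4a1, 1426348_at, measured 8.99, 9.52 and 8.93 in OVX against 8.74, 8.93 and 8.85 in OVX + E2. These groups touched at OVX replicate 3 and OVX + E2 replicate 2, with a difference of −0.30.

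The remaining collagen IV chains, Col4a3 to Col4a6, are known from specialised basement membranes such as that of the kidney glomerulus, and none of their probe sets was at an unadjusted p under 0.05. Col15a1, which encodes the collagen XV of muscle basement membranes, measured 7.75, 8.22 and 7.97 in OVX against 7.62, 7.91 and 7.68 in OVX + E2 on probe set 1448755_at. The groups overlapped, with OVX replicate 2 again highest, and the difference was −0.24 (standard error 0.125, unadjusted p = 0.095 from limma). Col18a1, which encodes collagen XVIII, the precursor of endostatin, gave 7.70, 7.61 and 7.50 in OVX against 7.60, 7.59 and 7.51 in OVX + E2 on probe set 1426955_at. Its difference was −0.04 on that probe set and −0.01 on 1418237_s_at. Unlike Col4a1, Col4a2 and Col15a1, Col18a1 was not highest on OVX replicate 2 on 1426955_at.

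Collagen VI is built of 3 different chains, and all 4 probe sets of Col6a1, Col6a2 and Col6a3 were lower at an unadjusted p under 0.05 from limma as deposited. After cyclic loess only Col6a3 was. Col6a3, the largest chain, at chr1:90766860-90844001, measured 8.84, 8.97 and 8.62 in OVX against 8.34, 8.57 and 8.36 in OVX + E2 on probe set 1424131_at. Every OVX array was above every OVX + E2 array, and OVX replicate 3 and OVX + E2 replicate 2 lay closest. The difference was −0.39 (standard error 0.0997, unadjusted p = 0.0060 and adjusted p = 0.308 from limma). An exact permutation test gave a two-sided p of 0.1, the smallest possible. In 6 of the 6 limma fits that leave out 1 array the unadjusted p of Col6a3 was under 0.05, with differences from −0.48 to −0.31, and without OVX replicate 3 it was 0.00075. It was −0.27 after cyclic loess and −0.18 with OVX replicate 2 left out as well.

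Col6a1 and Col6a2 lie 85.2 kb apart on chromosome 10, at chr10:76708792-76726044 and chr10:76595756-76623630. Col6a1 probe set 1448590_at measured 8.79, 8.98 and 8.46 in OVX against 8.35, 8.54 and 8.20 in OVX + E2. OVX replicate 3 lay below OVX + E2 replicate 2, so the groups overlapped, and the difference was −0.38 (standard error 0.140, unadjusted p = 0.030 from limma). Col6a2 probe set 1452250_a_at measured 9.35, 9.44 and 9.08 in OVX against 8.92, 9.20 and 8.88 in OVX + E2, a difference of −0.29 (standard error 0.115, unadjusted p = 0.040 from limma) with the same 2 arrays crossing. Col6a2 probe set 1426947_x_at measured 8.75, 8.99 and 8.71 in OVX against 8.56, 8.68 and 8.38 in OVX + E2, without overlap, a difference of −0.28 (standard error 0.098, unadjusted p = 0.026 from limma). After cyclic loess the differences were −0.27 for Col6a1 and −0.15 and −0.16 for Col6a2, with unadjusted p-values of 0.10, 0.23 and 0.149 from limma. Without OVX replicate 2 they were −0.26 for Col6a1 and −0.22 and −0.19 for Col6a2, with unadjusted p-values of 0.091, 0.123 and 0.074 from limma. With cyclic loess and without OVX replicate 2, all 4 collagen VI probe sets were below 0, between −0.18 and −0.06, while the median of the 6 bright fibrillar probe sets was 0.07 and that of the 3 of type IV was 0.01. No test of that contrast between the classes was run. Col6a4 and Col6a5, whose probe sets were dim, differed between −0.04 and 0.06.

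**Figure D3:**
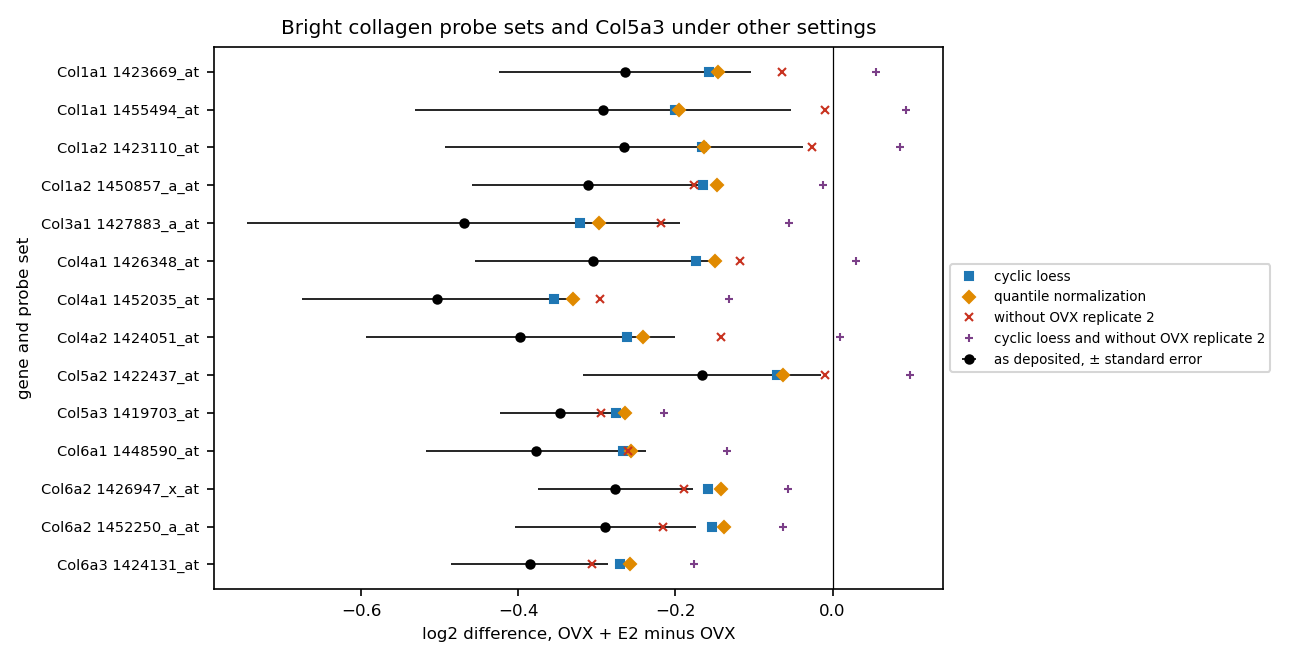
Difference of OVX + E2 minus OVX (horizontal axis, log2) of the bright collagen probe sets and Col5a3 1419703_at (rows), as deposited with its standard error (black), after cyclic loess (blue squares), after quantile normalization (orange diamonds), without OVX replicate 2 (red crosses) and with cyclic loess and without that array (purple plus signs). Every probe set is below 0 in the first 4 settings. In the last 1 the 6 bright fibrillar probe sets lie between −0.06 and 0.10 and those of collagen VI between −0.18 and −0.06. Those of type IV lie there between −0.13 and 0.03, and Col5a3 1419703_at, also fibrillar, lies below all of these.

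The collagens that were higher at an unadjusted p under 0.05 were dim. Col10a1, the short-chain collagen of hypertrophic cartilage, measured 6.43, 6.47 and 6.44 in OVX against 6.73, 6.53 and 6.69 in OVX + E2 on probe set 1422253_at. Every OVX + E2 array was above every OVX array, with a difference of 0.20 (standard error 0.057, unadjusted p = 0.0098 from limma) that was at an unadjusted p under 0.05 in 6 of the 6 fits that leave out 1 array. Col13a1, a transmembrane collagen of the neuromuscular junction, gave 6.44, 6.58 and 6.48 in OVX against 6.63, 6.56 and 6.68 in OVX + E2 on 1422866_at, a difference of 0.13 (standard error 0.052, unadjusted p = 0.042 from limma). Its groups overlapped through OVX replicate 2. Col17a1, a transmembrane collagen of skin, gave 6.03, 6.07 and 6.09 in OVX against 6.18, 6.11 and 6.19 in OVX + E2 on 1418799_a_at, at percentile 6.48 of all probe sets and with a difference of 0.10 (unadjusted p = 0.045 from limma). Its groups did not overlap.

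Col22a1, a collagen of the muscle-tendon junction, gave 7.22, 7.29 and 7.21 in OVX against 7.34, 7.32 and 7.35 in OVX + E2 on 1446851_at, a difference of 0.09 (unadjusted p = 0.044 from limma). Its groups did not overlap, but the other probe sets of Col22a1 differed by −0.07 and −0.14, so the gene has no single direction. All 4 of these probe sets had a mean under 8, and after median centring of the arrays 1 collagen probe set was higher at an unadjusted p under 0.05. The 24 probe sets of the fibril-associated collagens, a group with interrupted helices that includes Col12a1 and Col14a1 on the surface of fibrils, differed between −0.14 and 0.10. The transmembrane collagens differed between −0.01 and 0.13 over 7 probe sets. Col7a1 and Col26a1 differed between −0.02 and 0.01.

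The spread between arrays of the same group was the most marked feature of the bright collagens. OVX replicate 2 held the highest value in 13 of the 13 bright collagen probe sets, where it did so in 21.6% of all bright probe sets. The same 13 of 13 stood after quantile normalization, cyclic loess and median centring. The median deviation of the bright collagens from the mean of all 6 arrays was 0.08, 0.53 and −0.10 in OVX against −0.22, −0.01 and −0.26 in OVX + E2, again by replicate number. Over all bright probe sets it was 0.04 on OVX replicate 2, so that array was not bright in general. Among the OVX + E2 arrays, replicate 2 was highest in 12 of the 13, beside 3739 of all 8643 bright probe sets. After quantile normalization it was highest in 9 of the 13, beside 2530 of the 8643. After cyclic loess it was highest in 11, beside 3016. The labels give the shared number no meaning.

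The SD within OVX was larger than that within OVX + E2 in 13 of the 13 bright collagens, with medians of 0.34 and 0.15, beside 0.10 and 0.08 for all bright probe sets. It was larger in 5164 of all 8643 bright probe sets, and in 12 of the 13 collagens after median centring. OVX replicate 2, highest in all 13, enters the SD within OVX. By class, the median SD within OVX of bright probe sets was 0.40 for fibrillar, 0.37 for basement membrane and 0.18 for collagen VI. The largest range over the arrays was that of Col3a1 1427883_a_at, 1.28 or 2.43-fold between OVX replicate 2 and OVX + E2 replicate 3. Col1a1 1455494_at spanned 1.11 (2.16-fold), Col4a1 1452035_at 1.08 (2.11-fold), Col1a2 1423110_at 1.01 (2.01-fold) and Col4a2 1424051_at 0.99 (1.99-fold), each highest on OVX replicate 2. Without both arrays numbered 3, which stand apart in fast fibre genes, the median difference of the bright collagens was −0.42. Without OVX replicate 3 alone it was −0.48, and without OVX + E2 replicate 3 alone −0.27. The collagens with a mean under 8 had median SDs of 0.06 within OVX and 0.05 within OVX + E2, and OVX replicate 2 was highest in 17 of those 69.

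**Figure D4:**
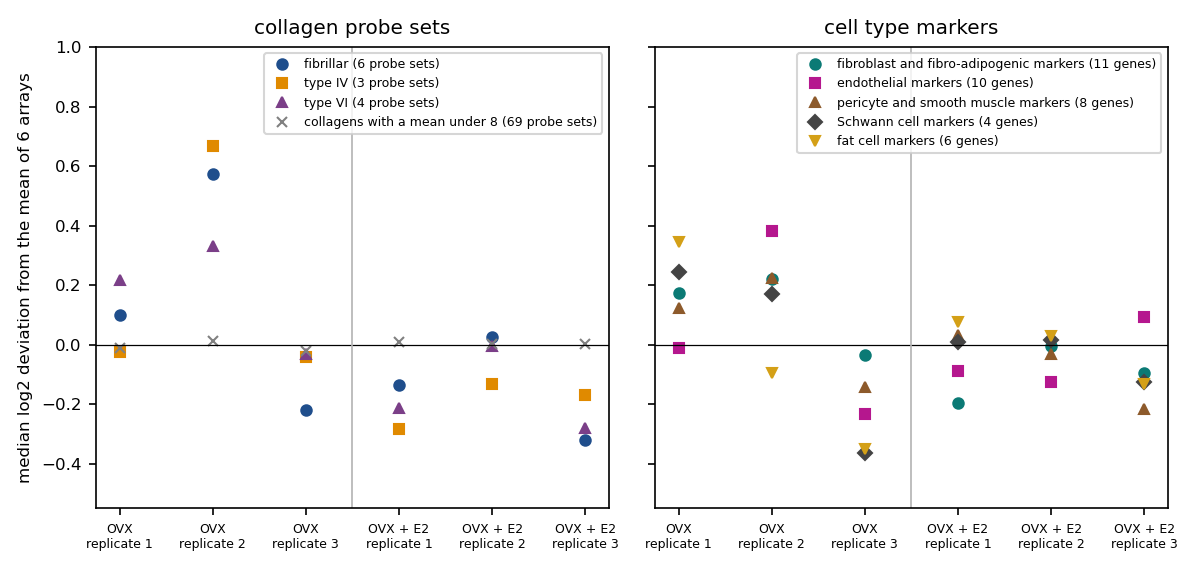
Median deviation from the mean of the 6 arrays (vertical axis, log2) on each array (horizontal axis), at left for the bright probe sets of each collagen class and the dimmer collagens, and at right for the brightest probe set of each gene of 5 lists of cell type markers. On OVX replicate 2 the bright collagens lie at 0.57 for fibrillar, 0.67 for type IV and 0.33 for type VI, and the endothelial markers at 0.38.

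Markers of other cells of muscle were read beside the collagens, by the brightest probe set of each gene. Of 13 fibroblast and fibro-adipogenic markers 11 were measured, and their summed linear level was between 8093 and 9762 in OVX and between 7477 and 8328 in OVX + E2. Their median difference over 22 probe sets was −0.08. Of those, 5 were lower at an unadjusted p under 0.05 from limma (22.7%, beside 9.43% of all probe sets and 32.8% of bright ones), among them Dcn 1449368_at (decorin, −0.28), Dpt 1418511_at (dermatopontin, −0.35) and Smoc2 1415935_at (−0.33). After cyclic loess 2 of the 22 were lower (9.09%, beside 4.02% of all) with a list median of −0.03. After quantile normalization 1 was lower (4.55%, beside 3.33% of all) with a list median of −0.02. Without OVX replicate 3 there were 9 (40.9%, beside 9.1% of all). By gene, 7 of the 11 were highest on OVX replicate 2. For decorin the OVX arrays lay close together, at 11.35, 11.42 and 11.38, with replicate 2 the highest of them. Dermatopontin was highest on OVX replicate 1. Of the 10 endothelial markers, 9 were highest on OVX replicate 2. Their summed level ranged from 3168 to 4746 in OVX and from 3374 to 3899 in OVX + E2, and 0 of 17 probe sets were at an unadjusted p under 0.05 from limma.

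Pericyte and smooth muscle markers ranged from 6458 to 8458 in OVX and from 5728 to 6782 in OVX + E2, with 4 of 8 genes highest on OVX replicate 2. The 8 tendon markers ranged from 1224 to 1529 and from 1262 to 1443, with 5 highest on that array. Schwann cell markers (4 genes measured) ranged from 1921 to 4091 and from 2388 to 3057, fat cell markers (6 genes) from 3596 to 6286 and from 4895 to 5227, and macrophage and leukocyte markers (8 genes) from 1493 to 1781 and from 1511 to 1787. OVX replicate 2 held the highest value in 1, 1 and 2 genes of these lists. Slow fibre genes ranged from 54766 to 70540 and from 62517 to 68920, and heart-restricted genes from 1120 to 1321 and from 1211 to 1343. The part of these cells in the collagen values was not tested.

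The machinery that makes, crosslinks, degrades and binds collagen was read from 4 lists, of which 57 genes with 118 probe sets were measured. None was at an unadjusted p of 0.001 or less. Most genes named below have further probe sets, whose values are not given here. At an unadjusted p under 0.05 from limma 14 were lower and 4 higher (11.9% and 3.39%, beside 9.43% and 4.35% of all probe sets). The median difference was −0.04 with 82 of the 118 below 0 (69.5%, beside 52.3% of all and 90.4% of bright ones). Of the 118, 78 were brighter than the median of the array, and 32.8% of all bright probe sets were lower. The list of chain synthesis and folding had 20 of 21 genes measured, with a median of −0.07 over 33 probe sets, 28 of them below 0. Of these 7 were lower and 0 higher (21.2% lower, beside 9.43% of all probe sets and 32.8% of bright ones), and 28 of the 33 were brighter than the median of the array. After cyclic loess 1 was lower, and after quantile normalization 1 (3.03% each, beside 4.02% and 3.33% of all). Colgalt1, which glycosylates hydroxylysine of collagen, measured 9.10, 9.03 and 9.03 in OVX against 8.90, 8.90 and 8.82 in OVX + E2 on 1433495_at (difference −0.18, standard error 0.042, unadjusted p = 0.0034 from limma). Its groups did not overlap. P4hb 1437465_a_at, the beta subunit of prolyl 4-hydroxylase, differed by −0.19 (unadjusted p = 0.012 from limma), and Mia3 1455066_s_at, which loads procollagen into transport vesicles, by −0.31 (unadjusted p = 0.025 from limma). After cyclic loess these 3 differences were −0.05, −0.05 and −0.16, and none was at an unadjusted p under 0.05. Serpinh1, the collagen chaperone, differed by −0.23 and −0.16 on its probe sets, neither at an unadjusted p under 0.05.

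Of the list of procollagen processing and crosslinking, 12 of 15 genes with 25 probe sets were measured, with a median of −0.01. At an unadjusted p under 0.05 from limma 8% were lower and 8% higher, beside 9.43% and 4.35% of all probe sets. Bmp1 1426238_at, the procollagen C-proteinase (−0.12, unadjusted p = 0.048 from limma), and Loxl1 1451978_at, a lysyl oxidase (−0.21, unadjusted p = 0.049 from limma), were the 2 lower ones. Tgm2 1438942_x_at, a transglutaminase (0.10), and Loxl4 1450134_at, another lysyl oxidase (0.13), were the 2 higher ones, both dim. The other probe sets of these 4 genes were not at an unadjusted p under 0.05. Of the list of collagen breakdown and its inhibitors, 15 of 16 genes with 32 probe sets were measured, with a median of −0.04. Of these probe sets 5 were lower (15.6%, beside 9.43% of all probe sets and 32.8% of bright ones), and 22 were brighter than the median of the array. After cyclic loess 1 was lower, Mmp14 1448383_at, and after quantile normalization 1 (3.12% each, beside 4.02% and 3.33% of all). Timp2, an inhibitor of matrix metalloproteinases, differed by −0.29 on 1454677_at and −0.30 on 1460287_at (unadjusted p = 0.0085 and 0.020 from limma). Mmp2, the gelatinase that degrades denatured collagen and collagen IV, measured 7.90, 8.37 and 8.01 in OVX against 7.67, 7.90 and 7.67 in OVX + E2 on 1416136_at. OVX replicate 2 was its highest array too, and the difference was −0.35 (standard error 0.124, unadjusted p = 0.027 from limma). Mmp14 1448383_at, which activates pro-Mmp2, differed by −0.23 (unadjusted p = 0.033 from limma).

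Of the collagen receptors, 10 of 11 genes with 28 probe sets were measured, with a median of −0.03. At an unadjusted p under 0.05 from limma 0 were lower and 2 higher (0% and 7.14%, beside 9.43% and 4.35% of all probe sets). Ddr1 1459990_at, a receptor tyrosine kinase that binds collagen, measured 7.43, 7.51 and 7.48 in OVX against 7.64, 7.59 and 7.69 in OVX + E2. Every OVX + E2 array was above every OVX array, with a difference of 0.17 (standard error 0.042, unadjusted p = 0.0050 from limma), and 0.20 after cyclic loess. Itgb1 1438119_at, a dim probe set of the beta 1 integrin, differed by 0.08 (unadjusted p = 0.048 from limma). No other probe set of Ddr1 or Itgb1, each of which has several, was at an unadjusted p under 0.05. After cyclic loess the counts over the 4 lists were 2 lower and 1 higher (1.69% and 0.847%, beside 4.02% and 3.57% of all). Leaving out OVX replicate 3 moved the count of 14 lower ones to 23 (19.5%, beside 9.1% of all probe sets). Leaving out OVX + E2 replicate 1 moved it to 7 (5.93%, beside 7.48%), and OVX + E2 replicate 3 to 4 (3.39%, beside 5.7%). The count of 4 higher ones moved to 2 without OVX replicate 2 or 3 (1.69% each, beside 3.67% and 3.17% of all). It moved to 1 without OVX + E2 replicate 1 (0.847%, beside 2.87%).

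**Figure D5:**
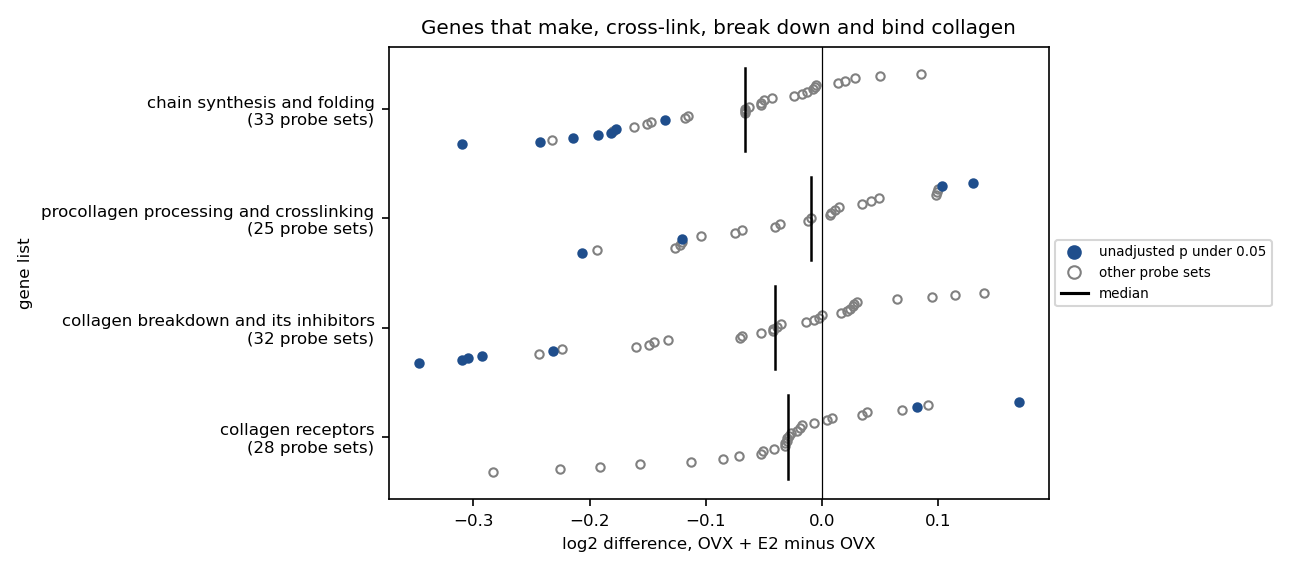
Difference of OVX + E2 minus OVX (horizontal axis, log2) of each probe set of the 4 lists of genes that make, crosslink, break down and bind collagen, with probe sets at an unadjusted p under 0.05 filled and the median of each list as a line. The medians lie between −0.07 and −0.01, and the 14 lower filled points belong to the first 3 lists.

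Promoter windows are shown for 3 of the bright chains, 1 each of collagens I, III and VI, whose transcripts had their highest value on the same array. The sequences are those of RefSeq on GRCm38.p6, the 150 bases before the annotated start of the gene, 5′ to 3′ on the strand of the gene, with a matched motif in capitals. Col1a2 is at chr6:4505468-4505617 on the plus strand, Col3a1 at chr1:45311388-45311537 on the plus strand and Col6a1 at chr10:76726045-76726194 on the minus strand.
Col1a2: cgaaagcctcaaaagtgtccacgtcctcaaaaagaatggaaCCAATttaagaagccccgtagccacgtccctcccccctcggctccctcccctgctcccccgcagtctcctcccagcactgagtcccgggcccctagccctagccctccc
Col3a1: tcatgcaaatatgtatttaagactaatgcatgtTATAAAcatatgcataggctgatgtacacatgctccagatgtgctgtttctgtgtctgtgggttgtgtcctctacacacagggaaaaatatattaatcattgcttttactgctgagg
Col6a1: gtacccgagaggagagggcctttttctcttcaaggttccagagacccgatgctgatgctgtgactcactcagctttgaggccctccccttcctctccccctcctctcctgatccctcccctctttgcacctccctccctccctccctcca
The motifs searched on both strands were the CCAAT box by its letters CCAAT, the TATA box by TATAAA, the GC box by GGGCGG and the palindromic estrogen response element, and matches of 1 motif did not overlap those of another in these windows. Col1a2 holds CCAAT, with its first base 109 bases before the start, Col3a1 holds TATAAA at 117 bases and Col6a1 holds none of the 4. Of 42 collagen genes 33 had a window in the table, 36 windows in all. CCAAT was in 8 of the 36 and in 24.5% of 32851 promoter windows of the same length, TATAAA in 4 and in 7.57%, and GGGCGG in 18 and in 28.6%. The estrogen response element was in 0 of the 36 and in 0.0335% of all windows. A match describes letters only, and no match says no more than that these letters are absent from the window.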

How the data were processed

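Total RNA of 6 samples was hybridized to Affymetrix Mouse Genome arrays, 1 per sample. The authors corrected the background, normalized with variance stabilization, summarised probe sets by median polish in R 2.14.2 (version per the submitters' processing notes) and deposited log2 values in arbitrary units, in which differences of dim probe sets are compressed. Arrays have no read depth, and their number limits the precision. Scans and detection calls were not used here. Samples were grouped by treatment from the labels.

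Probe sets were named by the platform annotation (34958 with 1 symbol, 932 with several, 9211 with none), and 34754 of the first had an identifier in the GRCm38.p6 gene table, which gave the positions and changed 0 symbols. Each of the 45101 probe sets was fitted in R 4.3.3 by limma 3.58.1 (functions lmFit and eBayes), as OVX + E2 minus OVX without covariates, two-sided, Benjamini-Hochberg adjusted over all. Calls used the study's unadjusted 0.001, an unadjusted 0.05 and groups without overlap. Single chains were also tested by exact permutation over the 20 labelings of the arrays.

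Values per array are given for the chains of collagens I, III, IV (alpha 1 and 2), V, VI (alpha 1 to 3), XV and XVIII, for collagens at an unadjusted p under 0.05 and for the 5 genes with the largest range, and of the pathway lists up to 3 genes of smallest p per direction. Serpinh1, the markers, the dimmer probe sets and the split at a mean of 8 were chosen after their values were seen. Members and lists were chosen with earlier results of these data known. Alternatives were cyclic loess (3 iterations), quantile normalization, median centring, a filter on dim probe sets, a replicate block, array weights, a variance trended on intensity, leaving out each array in turn or both numbered 3, and 1 value per gene. Cyclic loess without OVX replicate 2 was added after seeing the data. The fit was tested on simulated data.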

Additional observations from a re-analysis of the deposited data

How the results depend on the processing

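With 3 arrays a group and no adjusted p under 0.05, each call here rests on an unadjusted p. The counts were 8 lower and 4 higher collagen probe sets, 14 lower and 4 higher probe sets of the pathway lists. Collagens lower: 5 after quantile normalization, 5 after cyclic loess, 14 with the replicate block, 14 without both arrays numbered 3, 2 with cyclic loess and without OVX replicate 2, and 3 to 18 leaving out 1 array. Collagens higher: 1 after median centring, 0 with the filter on dim probe sets, 1 with the replicate block, 1 without both arrays numbered 3, and 1 to 6 leaving out 1 array. At an unadjusted p of 0.001 or less there was 1 collagen with the replicate block (Col3a1 1427883_a_at), and 0 to 1 leaving out 1 array, namely Col6a3 1424131_at without OVX replicate 3 and Col10a1 1422253_at without OVX + E2 replicate 2. Pathway lists lower: 2 after quantile normalization, 2 after cyclic loess, 4 with cyclic loess and without OVX replicate 2, 8 with 1 probe set per gene, and 4 to 23 leaving out 1 array. Pathway lists higher: 1 after quantile normalization, 1 after cyclic loess, 2 after median centring, 1 with the filter, 1 with the replicate block, 2 without both arrays numbered 3, 2 with 1 probe set per gene, and 1 to 4 leaving out 1 array. At 0.001 the pathway lists had 0 to 1 leaving out 1 array. The median difference of all collagens was −0.074 with the filter. That of the basement membrane collagens was −0.038 with the filter, −0.041 without both arrays numbered 3, and −0.045 to 0.011 leaving out 1 array. That of the other collagens was −0.011 with the filter, and that of the fibrillar collagens −0.013 with cyclic loess and without OVX replicate 2. Shares of all probe sets in the same settings are given above for quantile normalization, cyclic loess and leaving out 1 array. With 1 probe set per gene, 8 of 57 pathway genes were lower, beside 2365 of all 18194 genes, and 2 were higher, beside 1094. In the remaining settings no share of all probe sets is given here, so these counts alone do not tell a shift of the whole array apart. The cause was not tested in any of these. The bright collagens, 13 of 13 below 0 as deposited, were 7 of 13 with cyclic loess and without OVX replicate 2 (median −0.01, 0 at an unadjusted p under 0.05), and 13 of 13 in each other setting tried.

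The samples share only a replicate number: over all probe sets the deviations of same-numbered arrays correlated at −0.125, −0.200 and −0.342, so the block was not used for the values reported (over the collagens alone they correlated at 0.053, 0.680 and 0.429).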
